A study of Mus musculus with 20 samples.

Results

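The mRNAs of 10 enzymes that build or break down triglyceride were followed in mouse liver: *Gpam*, *Agpat2*, *Lpin1*, *Lpin2*, *Dgat1*, *Dgat2*, *Mogat1*, *Pnpla2*, *Pnpla3* and *Lipe*. They were chosen by symbol for their role, with earlier results of these data known. All 10 were found among the 50559 genes of the count table. Liver RNA-seq covered 20 livers of *Cideb* fl/fl mice (C57BL/6) in 4 groups of 5. WT mice received AAV-TBG-GFP and KO mice AAV-TBG-Cre, and each was fed either a Western diet (WD) or CDA-HFD, a choline-deficient, amino acid-defined high-fat diet. Every liver thus carried the floxed allele and an adeno-associated virus driven by TBG, a promoter active in hepatocytes. In the KO livers, which received Cre, *Cideb* was removed in hepatocytes and not in the other cells of the liver. CIDEB is a protein of lipid droplets and of lipoprotein assembly in hepatocytes. The labels give 3 months on either diet and no age. The study's text describes a longer feeding for WD, so the diets cannot be told apart from feeding time or from anything else that differed between the cohorts.

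Hepatocytes make triglyceride by adding fatty acyl chains to glycerol-3-phosphate, removing the phosphate and adding a last chain, and they store it in lipid droplets. Lipases on the droplet release the chains again, one at a time, for oxidation, signaling or renewed synthesis. Many of the genes of synthesis are induced by insulin, sugar and the transcription factors SREBP-1c, ChREBP or PPARγ, and several are much more abundant in adipose tissue than in liver.

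The members cover this route in order. *Gpam* (chromosome 19, 55067268 to 55127238) encodes the mitochondrial glycerol-3-phosphate acyltransferase that adds the first chain. *Agpat2* (chromosome 2, 26593057 to 26604417) adds the second. *Lpin1* (chromosome 12, 16535669 to 16610966) and *Lpin2* (chromosome 17, 71182560 to 71249817) encode phosphatidate phosphatases, which make diacylglycerol. *Dgat1* (chromosome 15, 76502015 to 76511953) and *Dgat2* (chromosome 7, 99153658 to 99182719) encode unrelated diacylglycerol acyltransferases that complete triglyceride, and *Mogat1* (chromosome 1, 78510991 to 78538173) encodes an acyltransferase that makes diacylglycerol from monoacylglycerol. On the breakdown side, *Pnpla2* (chromosome 7, 141455198 to 141460743) encodes ATGL, the lipase that starts triglyceride hydrolysis, *Pnpla3* (chromosome 15, 84167837 to 84187236) encodes a related lipid droplet protein, and *Lipe* (chromosome 7, 25379527 to 25398710) encodes hormone-sensitive lipase, which prefers diacylglycerol. These positions are those of whole genes in the GENCODE annotation of GRCm38, the assembly that mm10, the build in the submitters' processing notes, is made from.

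Promoter sequences from RefSeq on GRCm38.p6 were used for 8 of the 10 genes, with 12 starts in all, and those of *Dgat1* and *Dgat2* were not analysed here. The promoters of 4 members are shown, each with 250 bases before and 50 after the start, 5′ to 3′ on the strand of the gene: *Mogat1* and *Pnpla3*, the members with the largest change between diets, *Pnpla2*, among those with the smallest, and *Lipe* (the first of its starts), the member whose KO effect differed between the diets. Capitals mark matches to the motifs searched.

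*Mogat1*, chr1:78510810-78511109, plus strand: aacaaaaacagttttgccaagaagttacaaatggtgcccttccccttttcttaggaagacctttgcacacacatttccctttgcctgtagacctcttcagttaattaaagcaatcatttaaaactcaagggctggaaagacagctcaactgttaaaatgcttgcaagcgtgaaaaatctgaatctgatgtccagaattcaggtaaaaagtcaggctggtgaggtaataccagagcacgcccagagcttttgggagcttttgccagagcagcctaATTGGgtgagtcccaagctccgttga
*Pnpla3*, chr15:84167566-84167865, plus strand: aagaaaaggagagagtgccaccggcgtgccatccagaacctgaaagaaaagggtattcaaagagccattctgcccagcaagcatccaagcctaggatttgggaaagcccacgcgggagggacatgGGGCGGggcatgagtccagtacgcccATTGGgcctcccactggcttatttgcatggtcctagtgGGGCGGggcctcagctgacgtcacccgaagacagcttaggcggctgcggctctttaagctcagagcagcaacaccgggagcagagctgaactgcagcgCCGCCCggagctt
*Pnpla2*, chr7:141454938-141455237, plus strand: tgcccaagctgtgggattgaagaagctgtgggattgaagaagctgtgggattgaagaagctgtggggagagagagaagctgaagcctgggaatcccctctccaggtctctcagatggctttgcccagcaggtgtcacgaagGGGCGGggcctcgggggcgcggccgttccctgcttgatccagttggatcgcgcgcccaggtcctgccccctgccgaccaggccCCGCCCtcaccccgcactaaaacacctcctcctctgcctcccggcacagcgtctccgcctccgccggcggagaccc
*Lipe*, chr7:25395938-25396237, minus strand: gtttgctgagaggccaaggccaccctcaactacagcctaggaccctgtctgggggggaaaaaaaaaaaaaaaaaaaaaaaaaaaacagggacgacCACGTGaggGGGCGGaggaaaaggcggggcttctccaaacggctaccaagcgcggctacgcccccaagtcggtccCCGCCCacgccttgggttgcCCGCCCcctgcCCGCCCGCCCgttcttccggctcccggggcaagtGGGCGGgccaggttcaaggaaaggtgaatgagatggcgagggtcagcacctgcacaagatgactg

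The search covered both strands for the GC box GGGCGG, the CCAAT box CCAAT, the E-box CACGTG, the nuclear receptor core motif AGGTCA, the PPAR element AGGTCANAGGTCA (which contains that core motif), the SREBP element TCACNCCAC and the TATA box TATAAA. The *Lipe* window held 6 GC boxes, of which those 49 and 45 bases before the start overlapped in 2 letters, and an E-box 155 bases before the start. The *Pnpla3* window held 3 GC boxes and a CCAAT box, and that of *Pnpla2* held 2 GC boxes. The *Mogat1* window held a single match, a CCAAT box just past the start. Over all 12 member promoters, 7 had a GC box, 4 a CCAAT box, 2 an E-box and 2 the core motif, and 0 had the SREBP, PPAR or TATA letters. Among all 32851 promoters of that length, 35.7% had a GC box, 37.4% a CCAAT box, 7.15% an E-box, 16.3% the core motif, 1.24% the SREBP element, 0.0396% the PPAR element and 13.6% the TATA box. These letters describe the windows only, and binding was not measured.

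Each library held 11697049 to 16827147 reads counted on genes. *Cideb* had 52 to 100 reads in WT livers on WD and 35 to 60 on CDA-HFD, against 0 to 6 in the KO livers of both diets, as the labels state. Hepatocyte markers such as *Alb* (23887 to 79749 CPM, the unit defined below) were high in every liver. KO liver 5 on CDA-HFD stood apart: on the first principal component of that diet, which held 59.9% of the variance, it lay at -41.6, among the WT livers (-64.5 to -7.77) and away from the other KO livers (43.3 to 66.9). The sum of its hepatocyte markers (31095 CPM, where the remaining KO livers on CDA-HFD had 65340 to 93981) and that of its macrophage markers (1784 CPM, against 374 to 461) also set it apart. The KO effects on CDA-HFD of the 9 enzymes tested there are therefore given with and without it. This liver was picked from the same expression data, for lying among the WT livers. Leaving it out thus favours larger differences between KO and WT over all genes, and p-values without it are descriptive only. Other values include KO liver 5 unless stated otherwise.

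Markers of other cell types moved with diet and, for some cell types on CDA-HFD, with KO. The 6 macrophage markers summed to 1356 to 3068 CPM in WT and 374 to 1784 in KO livers on CDA-HFD, against 159 to 598 on WD, and 3 of the 6 were lower in KO than in WT on CDA-HFD. The 7 stellate cell markers summed to 1942 to 3382 CPM in WT livers on CDA-HFD and 889 to 3449 in KO livers, against 388 to 971 in WT livers on WD. All 3 neutrophil markers tested and 1 of the 7 stellate cell markers were lower in KO than in WT on CDA-HFD, where 15.5% of all genes were called. No hepatocyte, cholangiocyte, endothelial or lymphocyte marker passed in that comparison, and no marker of any list did on WD. Between diets in WT livers 5 of 5 cholangiocyte markers were higher and 4 of 5 endothelial markers lower on CDA-HFD, beside 51.1% of all genes called. The 6 hepatocyte markers summed to 29256 to 64925 CPM in WT livers on CDA-HFD and 53578 to 93418 on WD, and 2 of them passed as lower on CDA-HFD. Fewer hepatocytes and less RNA per hepatocyte cannot be told apart in bulk liver. Since *Lipe*, *Pnpla2* and *Dgat2* are also adipocyte genes, 5 adipocyte markers were read too: *Adipoq* was at 0 in 17 and *Lep* at 0 in 19 of the 20 livers, and *Plin1* and *Retn* did not exceed 0.0782 and 0.235 CPM. Of that list *Cfd* alone went above 1 CPM, with mean levels on WD of 45.7 CPM in WT and 15.9 in KO livers, and of at most 0.0973 on CDA-HFD. The part of these cell types in the results below was not tested.

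Values are CPM, the reads of a gene relative to all reads counted on genes in that liver, scaled by TMM over all 20 livers. Put per kilobase of exon, merged over all annotated transcripts of a gene, the levels of the members differed widely. Transcripts present in liver may be shorter than this length, so the order of the members is approximate. *Dgat2* had the highest mean in all 4 groups, from 88.5 ± 17.1 CPM per kb in WT livers on CDA-HFD to 219.8 ± 16.5 in KO livers on WD (SD, n = 5). Its partner *Dgat1*, which catalyses the same step, stayed between 6.41 ± 0.481 and 9.62 ± 0.581 CPM per kb. On WD, *Gpam*, *Agpat2* and *Lpin2* followed in WT livers at 123 ± 7.25, 107 ± 13.6 and 96.1 ± 11.8 CPM per kb, and the ranges of neighbours in that order overlapped. *Lpin1* had a mean of 69.0 ± 39.3 CPM per kb and overlapped all 3. *Pnpla2* stood at 39.9 ± 4.86 CPM per kb, and its range overlapped that of *Lpin1* above it but not that of *Pnpla3* below. *Pnpla3*, *Dgat1*, *Mogat1* and *Lipe* closed the order at 10.4 ± 2.45, 8.67 ± 0.669, 5.7 ± 2.0 and 4.80 ± 0.397 CPM per kb, with overlapping ranges between neighbours. On CDA-HFD the bottom of the order was another, with *Lipe* above *Pnpla3* and *Mogat1* last at 0.153 ± 0.0413 CPM per kb in WT livers. *Lipe*, *Pnpla3* and *Mogat1* did not overlap one another in WT livers on that diet.

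**Figure D1:**
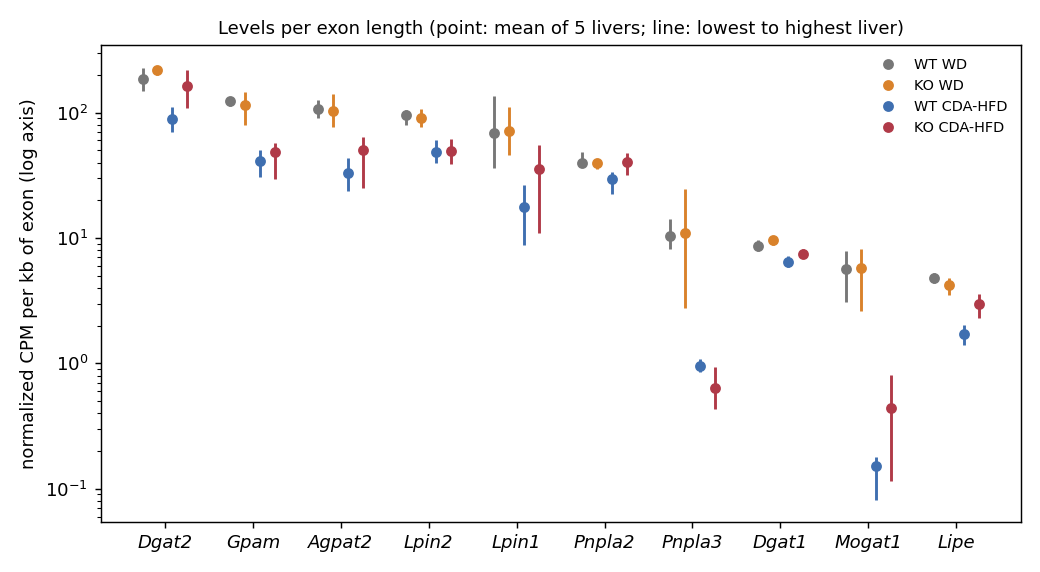
Normalized CPM per kb of exon on a log axis for the 10 enzymes in the 4 groups; points are means of 5 livers and lines run from the lowest to the highest liver. *Dgat2* was highest in every group, and *Pnpla3* and *Mogat1* lay farthest below their WD level on CDA-HFD.

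Between diets the enzymes fell together. In WT livers all 10 passed as lower on CDA-HFD than on WD (edgeR quasi-likelihood test, adjusted p from 6.21e-07 for *Pnpla3* to 0.00960 for *Pnpla2*), with a median log2 fold change of -1.54 against -0.00 over all genes tested. With libraries scaled by their size only, which moved the median of all genes by 0.42, 8 still passed, beside 63.9% of all genes. Under that scaling *Dgat1* and *Pnpla2* did not pass. With TMM the same contrast called 51.1% of all genes, 4335 higher and 4207 lower. None of the 10 overlapped between WT_WD and WT_CDAHFD, which held for 37.1% of all genes. In KO livers 7 of the 10 passed as lower on CDA-HFD, with a median of -0.95, where 17.0% of all genes were called and 15.2% did not overlap between the diets. The exceptions were *Lpin1* (-1.03 ± 0.46 SE, edgeR adjusted p = 0.143), *Dgat2* (-0.44 ± 0.16, 0.0806) and *Pnpla2* (0.01 ± 0.13, 0.962). Without KO liver 5, 6 passed, beside 17.4% of all genes, since the edgeR adjusted p of *Lipe* became 0.0517.

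Between WT and KO the 2 diets gave different counts. On WD 0 of the 10 enzymes passed, by edgeR or by DESeq2, where edgeR called 0.0757% of all genes (12 of 15848). An unadjusted edgeR p under 0.05 was found in 0 of the 10 and in 1702 of all genes. On CDA-HFD 2 of the 9 enzymes tested passed, *Dgat2* and *Lipe*, both higher in KO livers, where 15.5% of all genes were called. *Mogat1* had too few reads on that diet to enter the test. Of the 9, 8 had a positive fold change, as did 8700 of all 17204 genes. An unadjusted edgeR p under 0.05 was found in 6 of the 9 and in 6076 of all genes. The median of the 9 was 0.44, against 0.00 over all genes. Without KO liver 5, 4 passed: *Agpat2*, *Dgat2* and *Lipe* as higher and *Pnpla3* as lower, where 41.4% of all genes (7201) were called. Among the 9, DESeq2 called 4, beside 24.1% of all genes, and the fit of all 20 livers 5, beside 23.4%, with *Dgat1* and *Pnpla2* added in both and *Agpat2* in the latter. *Lipe* alone differed between the diets in its KO effect, where 0.556% of all genes (99 of 17804) did.

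**Figure D2:**
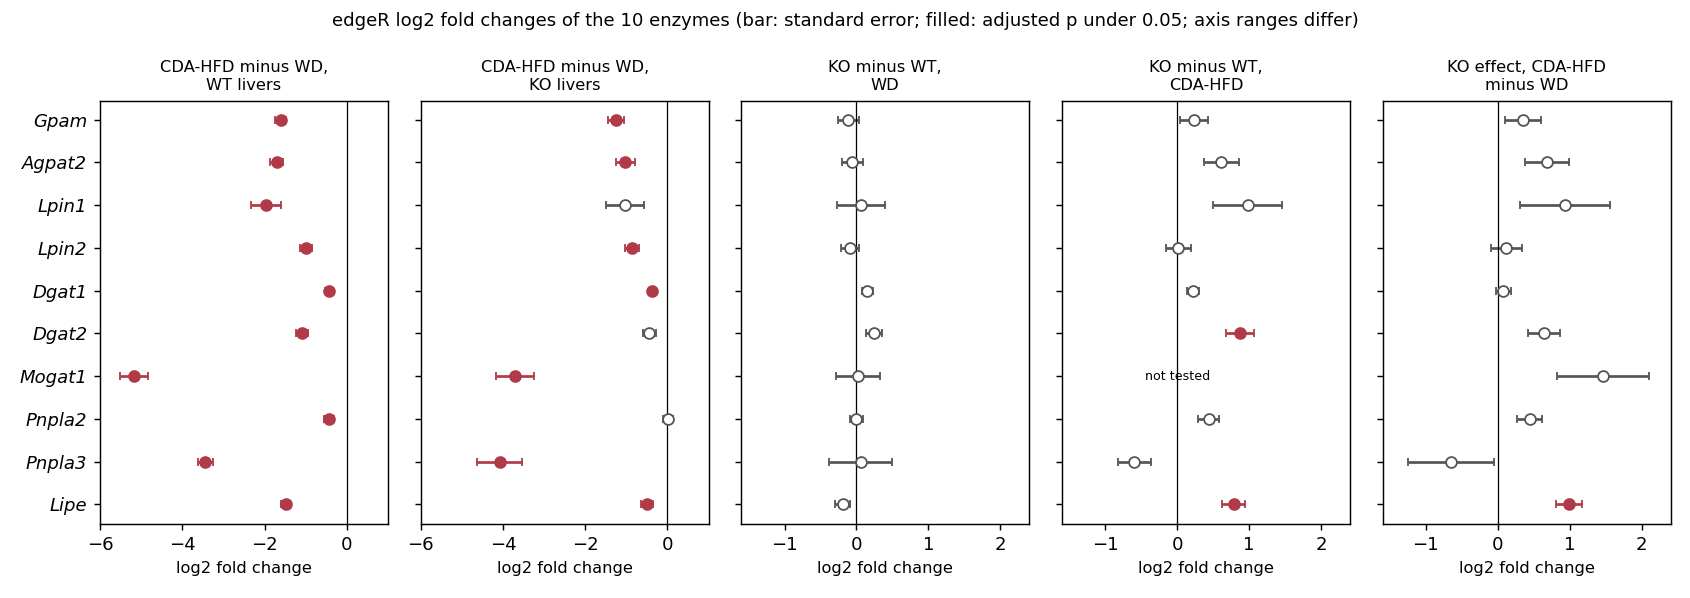
Log2 fold changes with standard errors for the 10 enzymes in the 4 comparisons and in the difference of the KO effects, from edgeR; filled points have an adjusted p under 0.05, and the axis of the diet panels runs wider than that of the others. All 10 are filled in WT livers between diets, 7 in KO livers, 0 between WT and KO on WD, 2 on CDA-HFD and 1 in the last panel.

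The acyltransferases of the first steps were lower on CDA-HFD in both genotypes. *Gpam* had 859.5, 857, 747, 845 and 799 CPM in WT livers on WD and 204, 334, 238, 289.6 and 292 on CDA-HFD. In KO livers *Gpam* had 811, 655, 832, 529.8 and 970.1 CPM on WD and 376, 321, 379, 331 and 197 on CDA-HFD. Every liver on CDA-HFD lay below every liver on WD, and the WT livers on WD were the most even group. The change was -1.603 ± 0.14 (log2, SE) in WT livers, a 3.04-fold lower level, and -1.25 ± 0.20 in KO livers, with adjusted p of 1.04e-05 and 0.00247 by edgeR. Between genotypes *Gpam* differed by -0.11 ± 0.14 on WD (adjusted p = 0.818, edgeR) and by 0.24 ± 0.19 on CDA-HFD (0.399). KO liver 5 had the lowest *Gpam* level of all livers, and without it the KO value on CDA-HFD was 0.37 with an adjusted p of 0.0582.

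*Agpat2*, whose human counterpart is mutated in a congenital lipodystrophy, had 194, 207, 268, 238 and 234 CPM in WT livers on WD and 50.1, 92.4, 54.9, 76.9 and 76.1 on CDA-HFD. In KO livers it had 203, 209.7, 217, 163 and 302 CPM on WD and 106, 114, 136, 130.005 and 53.1 on CDA-HFD. Apart from KO liver 5, every KO liver on CDA-HFD lay above every WT liver on that diet, and all of them lay below the livers on WD. The fall between diets was -1.71 ± 0.17 in WT livers (3.27-fold, adjusted p = 2.17e-05 by edgeR) and -1.03 ± 0.23 in KO livers (0.0140). On WD *Agpat2* differed between genotypes by -0.06 ± 0.15 (adjusted p = 0.924, edgeR). On CDA-HFD it was 0.62 ± 0.25 with an adjusted p of 0.104, and 0.79 ± 0.17 with 0.00382 once KO liver 5 was left out. The difference of the KO effects between diets followed the same liver, at 0.68 ± 0.30 (adjusted p = 0.286, edgeR) with it and 0.85 ± 0.24 (0.0269) without, where 11.9% of all genes passed. The exons of *Agpat2* share 64 bases with *Egfl7* on the other strand, 3% of their length, and *Egfl7* had 0.46 ± 0.15 on CDA-HFD (adjusted p = 0.0562).

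The phosphatidate phosphatases were lower on CDA-HFD in WT livers, and *Lpin1* was the enzyme with the widest spread between livers of a group among the well-expressed members. *Lpin1*, which is also a transcriptional coactivator of fatty acid oxidation and is known to follow fasting and the clock, had 348, 508, 1323, 618 and 538 CPM in WT and 566, 603, 441, 781 and 1077 in KO livers on WD. Under CDA-HFD *Lpin1* had 84.4, 135, 184, 254 and 202 CPM in WT and 469, 113, 486, 105 and 529 in KO livers. The KO livers on CDA-HFD fell into a high and a low set with nothing between, livers 2 and 4 being low and 1, 3 and 5 high, and the low ones lay within the WT range. The highest of these 5 livers was 5.02 times the lowest, with 1436 to 8843 reads behind them.

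The fall of *Lpin1* between diets was -1.96 ± 0.37 in WT livers (3.89-fold, adjusted p = 0.000986, edgeR), and -1.03 ± 0.46 in KO livers did not pass (0.143). Between genotypes *Lpin1* differed by 0.06 ± 0.34 on WD (adjusted p = 0.971, edgeR) and 0.98 ± 0.48 on CDA-HFD (0.169), a fold of 1.97 that the spread did not separate from no change. Without KO liver 5, which was the highest here, the CDA-HFD value was 0.77 ± 0.47 (adjusted p = 0.215).

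*Lpin2*, the other liver lipin, was steadier. It had 977, 1065, 1254, 1294 and 1284 CPM in WT and 1181, 938, 949, 1119 and 1316 in KO livers on WD. Under CDA-HFD *Lpin2* had 486, 563, 668, 733 and 516 CPM in WT and 712, 553, 522, 472 and 753 in KO livers. The diets did not overlap, whereas WT and KO livers were mixed on both. The falls between diets were -0.99 ± 0.14 in WT (1.99-fold, adjusted p = 0.000190) and -0.87 ± 0.17 in KO livers (0.00669) by edgeR. KO minus WT was -0.09 ± 0.13 on WD (adjusted p = 0.837, edgeR) and 0.02 ± 0.17 on CDA-HFD (0.954), where leaving out KO liver 5 gave -0.07.

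**Figure D3:**
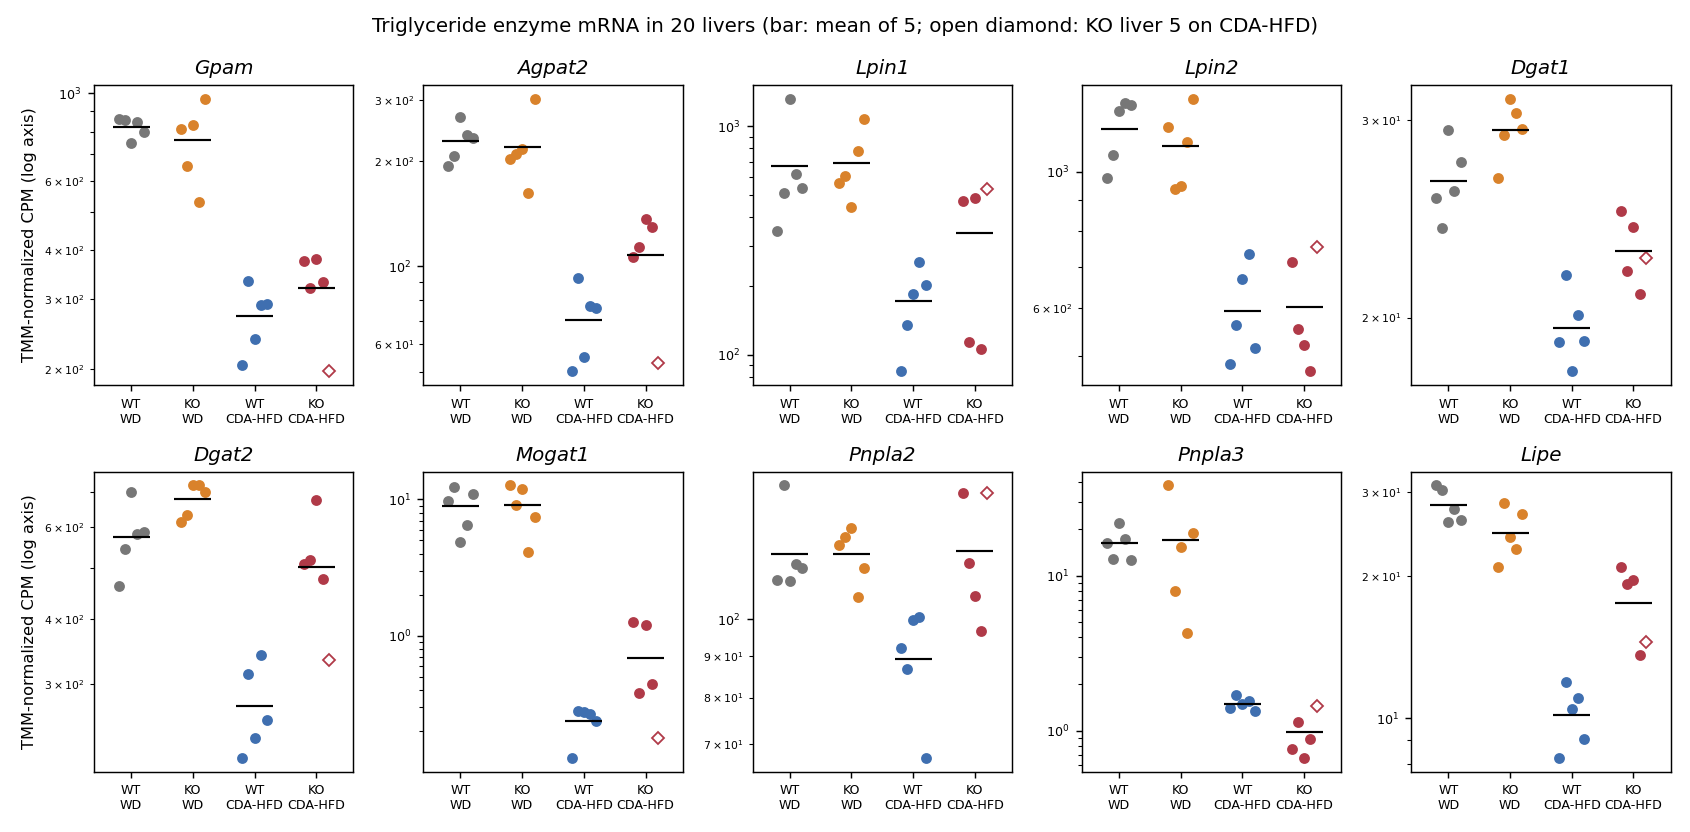
TMM-normalized CPM on a log axis for each of the 10 enzymes in each of the 20 livers, grouped by vector and diet; bars are group means and the open diamond is KO liver 5 on CDA-HFD. The fall from WD to CDA-HFD is visible in every panel for WT livers, and the split of the KO livers on CDA-HFD in that of *Lpin1*.

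At the last step of synthesis, *Dgat2* was higher in KO than in WT livers on CDA-HFD. *Dgat2*, which mainly joins newly made fatty acids to diacylglycerol, had 217, 314, 236, 341 and 257 CPM in WT and 509.7, 518, 676, 477 and 335 in KO livers on CDA-HFD. Its level on WD was 462, 545, 700.1, 583 and 586 CPM in WT and 614, 632, 721, 721 and 699.7 in KO livers. On CDA-HFD 4 of the 5 KO livers lay above every WT liver, and KO liver 5 lay within the WT range. KO minus WT on CDA-HFD was 0.88 ± 0.19 (1.84-fold, edgeR adjusted p = 0.0182; two-sided exact permutation p = 0.0159). Without KO liver 5 it was 0.99 ± 0.16 (adjusted p = 0.000906). Leaving out WT liver 3 or KO liver 1 put the adjusted p at 0.0532 and 0.0508. On WD the difference was 0.24 ± 0.11 (1.18-fold, edgeR adjusted p = 0.478; two-sided exact permutation p = 0.0476), which did not pass.

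The fall of *Dgat2* between diets was -1.08 ± 0.15 in WT livers (2.12-fold, edgeR adjusted p = 0.000147), and the value in KO livers, -0.44 ± 0.16, did not pass (0.0806). The difference of the KO effects was 0.65 ± 0.22 with an adjusted p of 0.188 in edgeR, and 0.76 ± 0.19 with 0.0185 without KO liver 5. The diet effects share their WT and KO livers with the KO effects, so these values are one set of 4 group means read along its sides.

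*Dgat1*, which also esterifies fatty acids taken up or released by lipolysis, had the smallest change between diets in WT livers among the enzymes of synthesis. Its level was 25.6, 24.0, 29.4, 26.0 and 27.5 CPM in WT and 26.6, 29.1, 31.4, 30.4 and 29.5 in KO livers on WD. Under CDA-HFD *Dgat1* had 19.0, 21.8, 17.9, 20.1 and 19.1 CPM in WT and 24.9, 22.0, 24.1, 21.0 and 22.6 in KO livers. Within each group the livers were close, and the KO livers tended to the upper side on both diets, with overlap. The fall between diets was -0.44 ± 0.08 in WT (1.36-fold, adjusted p = 0.000913) and -0.36 ± 0.09 in KO livers (0.0166) by edgeR. KO minus WT was 0.15 ± 0.08 on WD (edgeR adjusted p = 0.530; two-sided exact permutation p = 0.0476) and 0.22 ± 0.09 on CDA-HFD (0.0951; exact 0.0159), and did not pass on either. DESeq2 gave 0.0481 for the latter and the edgeR fit of all 20 livers 0.0381, and without KO liver 5 edgeR gave 0.23 ± 0.09 with 0.0648. With libraries scaled by their size only the value was 0.03 ± 0.11 (edgeR adjusted p = 0.850). It did not pass with the replicate number as a block (0.181) or with no filter on low counts (0.230) either.

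*Mogat1* had the largest change between diets of the 10 in WT livers. It had 9.70, 12.4, 4.84, 6.54 and 10.9 CPM in WT and 12.7, 9.09, 11.9, 4.10 and 7.43 in KO livers on WD. Under CDA-HFD *Mogat1* had 0.127, 0.281, 0.275, 0.268 and 0.237 CPM in WT and 1.25, 0.380, 1.2, 0.440 and 0.180 in KO livers. All livers on CDA-HFD were far below those on WD, and among them KO livers 1 and 3 stood above the rest. The reads behind the CDA-HFD values were few, 2 to 5 in WT and 3 to 18 in KO livers, against 54 to 150 on WD. The fall was -5.18 ± 0.34 in WT (36.3-fold, adjusted p = 2.85e-06) and -3.71 ± 0.47 in KO livers (13.1-fold, 0.000562) by edgeR. The difference of the KO effects was 1.46 ± 0.64 (adjusted p = 0.282, edgeR), and 1.72 ± 0.62 (0.0722) without KO liver 5. Between KO and WT on CDA-HFD *Mogat1* was fitted only with no filter on low counts, which gave 1.49 ± 0.52 with an adjusted p of 0.107. On WD KO minus WT was 0.02 ± 0.31. Its exons share 200 bases, 12.8% of their length, with *BC035947* on the other strand.

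Among the lipases, *Lipe* was the member with the clearest difference between KO and WT. *Lipe* had 8.24, 12.0, 10.5, 11.1 and 9.06 CPM in WT and 20.9, 19.2, 19.6, 13.6 and 14.5 in KO livers on CDA-HFD. On WD it had 31.1, 30.3, 25.9, 27.7 and 26.2 CPM in WT and 20.9, 28.4, 24.1, 22.8 and 27.1 in KO livers. On CDA-HFD every KO liver, liver 5 included, lay above every WT liver, and no other enzyme of the 10 was without overlap there, against 9.57% of all genes. On WD the groups overlapped and the KO mean was the lower one. KO minus WT was 0.79 ± 0.16 on CDA-HFD (1.72-fold, edgeR adjusted p = 0.0143). The two-sided exact permutation p was 0.00794, the smallest that 5 livers against 5 can give. Without KO liver 5 the value was 0.85 ± 0.15 (adjusted p = 0.00151), and *Lipe* passed in all 10 fits that left out a liver.

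On WD KO minus WT was -0.19 ± 0.10 for *Lipe* (edgeR adjusted p = 0.519), and 2.22% of all genes did not overlap on that diet, none of the 10 among them. The difference of the KO effects was 0.99 ± 0.18 (adjusted p = 0.0172, edgeR), and *Lipe* passed in all 20 fits that left out a liver, with adjusted p from 0.00255 to 0.0463. It was lost with libraries scaled by their size only (0.82 ± 0.19, adjusted p = 0.0842) and with the replicate number as a block (0.98 ± 0.19, 0.0715). The fall between diets was -1.48 ± 0.11 in WT livers (2.80-fold, adjusted p = 6.78e-06, edgeR). In KO livers it was -0.50 ± 0.14 (1.41-fold, 0.0348), where it passed in only 3 of the 10 fits that left out a liver, those without KO liver 1 on WD and without KO livers 1 or 3 on CDA-HFD. *Lipe* counts were 130 to 397 reads per liver. Its exons share 918 bases, 15.6% of their length, with the antisense gene *4732471J01Rik*, which had 34 to 79 reads and 0.63 ± 0.21 between KO and WT on CDA-HFD (adjusted p = 0.0593), and whether counting used strand is not given in the sources used here.

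*Pnpla2*, the ATGL gene, had 112, 146, 112, 117 and 116 CPM in WT and 123, 126, 129, 106 and 116 in KO livers on WD. Under CDA-HFD it had 92.0, 86.9, 99.7, 101 and 67.3 CPM in WT and 143, 117, 107, 96.6 and 143 in KO livers. The WT livers on CDA-HFD lay below all livers on WD, while the KO livers on CDA-HFD spread over much of the WD range. The fall between diets was -0.44 ± 0.12 in WT livers (1.36-fold, adjusted p = 0.00960) and the value in KO livers was 0.01 ± 0.13 (0.962) by edgeR. The KO effect was -0.00 ± 0.09 on WD (adjusted p = 0.997) and 0.44 ± 0.14 on CDA-HFD (1.35-fold, 0.0599), just short of the threshold in the edgeR fit. It passed by DESeq2 (0.0259), with all 20 livers in one fit (0.0158) and in 1 of the 10 fits that left out a liver, that without KO liver 4 (0.0482). It did not without KO liver 5 (0.37 ± 0.14, 0.0531) or with libraries scaled by their size only (0.27 ± 0.19, 0.327). Nor did it with the replicate number as a block (0.117), with scaling by RLE (0.0562), with no filter on low counts (0.0803) or with at least 10 counts in every library (0.0641). The difference of the KO effects, 0.44 ± 0.17, had an adjusted p of 0.236 in edgeR.

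*Pnpla3*, whose human counterpart carries a common variant tied to fatty liver and which is strongly induced by feeding, showed the other large fall between diets. It had 16.3, 12.8, 21.8, 17.1 and 12.5 CPM in WT and 38.2, 8.0, 15.3, 4.25 and 18.8 in KO livers on WD. Under CDA-HFD *Pnpla3* had 1.39, 1.69, 1.49, 1.54 and 1.33 CPM in WT and 0.765, 1.14, 0.664, 0.881 and 1.44 in KO livers. The KO livers on WD spread around the WT livers on both sides, the highest being 8.99 times the lowest, and on CDA-HFD KO liver 5 was the only one within the WT range. The fall was -3.44 ± 0.18 in WT (10.9-fold, adjusted p = 6.21e-07) and -4.08 ± 0.55 in KO livers (17.0-fold, 0.000883) by edgeR. On WD *Pnpla3* differed by 0.06 ± 0.44 between genotypes (adjusted p = 0.980, edgeR). On CDA-HFD it was -0.60 ± 0.23 (adjusted p = 0.0900), and -0.78 ± 0.22 (0.0150) without KO liver 5, from 10 to 28 reads per liver. Of the 9 enzymes tested there, *Pnpla3* was the one with a negative value. The difference of the KO effects was -0.65 ± 0.60 (adjusted p = 0.633, edgeR). Its exons share 105 bases, 6.78% of their length, with *Gm49513* on the same strand.

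**Figure D4:**
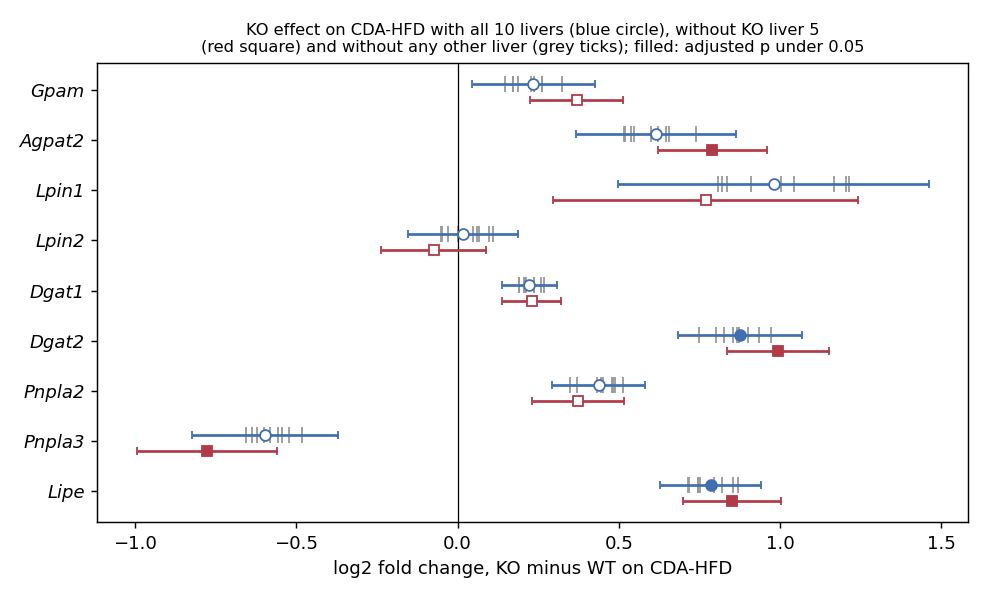
Log2 fold change of KO over WT livers on CDA-HFD for the 9 enzymes tested, with all 10 livers (blue circles, bars are standard errors), without KO liver 5 (red squares) and without each other liver (grey ticks); filled symbols have an adjusted p under 0.05. *Dgat2* and *Lipe* are filled in both, *Agpat2* and *Pnpla3* only without KO liver 5.

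The rest of the pathway was read from 16 other genes of triglyceride synthesis and 20 other genes of lipolysis. On WD 0 of 15 synthesis and 0 of 19 lipolysis genes tested passed between KO and WT by edgeR. At an unadjusted edgeR p under 0.05 were 4 and 8 of them, beside 1702 of all 15848 genes. DESeq2 called 2 and 3 genes of these lists, and 0.953% of all genes. On CDA-HFD 5 of 16 synthesis genes were higher and 1 lower in KO livers, with a median log2 fold change of 0.12. Of 18 lipolysis genes tested 8 were higher and 3 lower, with a median of 0.63, where all genes had 0.00 and 15.5% were called. These counts of 6 and 11 became 10 and 16 without KO liver 5, beside 41.4% of all genes. Without any 1 of WT livers 1, 3 and 5 or KO livers 1, 2 and 3 they became 2 for synthesis and 2 or 3 for lipolysis. The share of all genes called fell as well in these fits, to between 4.02% and 7.75%. Without KO liver 4 the counts became 4 and 3, beside 9.05% of all genes.

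Several relatives of the first enzyme rose in KO livers on CDA-HFD. *Gpat4*, the main acyltransferase of the endoplasmic reticulum for the first step, went from 112 ± 21.0 CPM in WT to 194 ± 22.2 in KO livers (SD, n = 5; 0.78 ± 0.14 log2, edgeR adjusted p = 0.0121). *Gpat2* and *Gpat3*, of the same family, rose by 0.65 ± 0.12 (0.0122) and 0.60 ± 0.19 (0.0496). *Acsl1*, which activates fatty acids to acyl-CoA, went from 472 ± 239 to 1244 ± 528 CPM (1.39 ± 0.40, adjusted p = 0.0392). *Agpat3* was higher by 0.49 ± 0.12 (0.0266) and *Agpat5* lower, at -0.41 ± 0.10 (0.0244), both relatives of *Agpat2* that add the second chain.

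Among the lipolysis genes, both hydrolases of monoacylglycerol, *Mgll* (0.91 ± 0.24, edgeR adjusted p = 0.0311) and *Abhd6* (0.92 ± 0.24, 0.0291), had higher levels in KO than in WT livers on CDA-HFD. *G0s2*, which encodes an inhibitor of ATGL, also rose, from 27.4 ± 10.5 to 68.5 ± 30.3 CPM (1.32 ± 0.34, adjusted p = 0.0296). *Hilpda*, another ATGL inhibitor, was lower (-0.80 ± 0.25, 0.0498) and was chosen after its value was seen. The KO effect on *Hilpda* on WD was of like size but did not pass (-0.80 ± 0.27, edgeR adjusted p = 0.328). *Abhd5*, which encodes the coactivator of ATGL, had 29.6 ± 2.85 CPM in WT and 28.7 ± 3.41 in KO livers and did not pass; it too was chosen after its value was seen. The carboxylesterase *Ces1f* rose by 1.42 ± 0.36 (0.0281), although reads of the *Ces1* family can be split between near-identical copies. *Lipa*, the lysosomal acid lipase, was lower at -0.51 ± 0.09 (0.0124). *Lpl*, the lipase of circulating lipoproteins, went from 338 ± 63.3 to 68.9 ± 62.8 CPM (-2.30 ± 0.46, adjusted p = 0.0142). Of the 6 macrophage markers, 3 were lower in the same comparison, while *Clec4f* had a mean of 91.3 CPM in WT and 115.5 in KO livers.

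Between diets genes of the pathway passed in both directions. In WT livers 9 of 16 synthesis genes were lower and 3 higher on CDA-HFD, with a median log2 fold change of -0.41, and 14 of 19 lipolysis genes were lower and 1 higher, with a median of -0.93, beside the 51.1% of all genes called. In KO livers 5 synthesis genes were lower and 1 higher of 16, and 10 lipolysis genes lower and 0 higher of 18, beside 17.0% of all genes. *Gpat4* and *Acsl5* fell in both genotypes, with log2 changes of -1.59 ± 0.18 and -1.58 ± 0.10 in WT and of -1.02 ± 0.12 and -1.16 ± 0.15 in KO livers (edgeR adjusted p from 2.85e-06 to 0.000562). *Gpd1*, which makes the glycerol-3-phosphate backbone, fell from 396 ± 84.1 to 118 ± 36.7 CPM in WT livers (-1.76 ± 0.22, adjusted p = 7.24e-05).

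The 3 synthesis genes higher in WT livers on CDA-HFD were *Mogat2* (2.28 ± 0.46, edgeR adjusted p = 0.00158), *Agpat4* (1.07 ± 0.16, 0.000236) and *Agpat1* (0.23 ± 0.08, 0.0326), of which *Mogat2* and *Agpat1* were chosen after their values were seen. *Mogat2*, the intestinal relative of *Mogat1*, thus had the opposite sign to it, from 4 to 22 reads per WT liver on WD and 27 to 81 on CDA-HFD. *Mgll* and *G0s2* fell, with -1.86 ± 0.18 (2.17e-05) and -2.37 ± 0.22 (1.93e-05). *Pnpla5*, a relative of *Pnpla2* and *Pnpla3*, had 19 to 40 reads per WT liver on WD and 0 in all 10 livers on CDA-HFD. *Lpl* was the lipolysis gene that rose, from 76.7 ± 47.1 to 338 ± 63.3 CPM (2.13 ± 0.35, adjusted p = 0.000387), and was chosen after its value was seen. Of the 6 macrophage markers, 4 were higher and 1 was lower in the same comparison, *Clec4f* having a mean of 135 CPM on WD and 91.3 on CDA-HFD. No gene of the other lists differed between the diets in its KO effect by edgeR, and 1, *Lpl*, did by DESeq2. At an unadjusted edgeR p under 0.05 were 5 synthesis and 5 lipolysis genes, beside 2736 of all 17804 genes. Without KO liver 5, 6 synthesis and 4 lipolysis genes passed by edgeR, beside 11.9% of all genes.

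**Figure D5:**
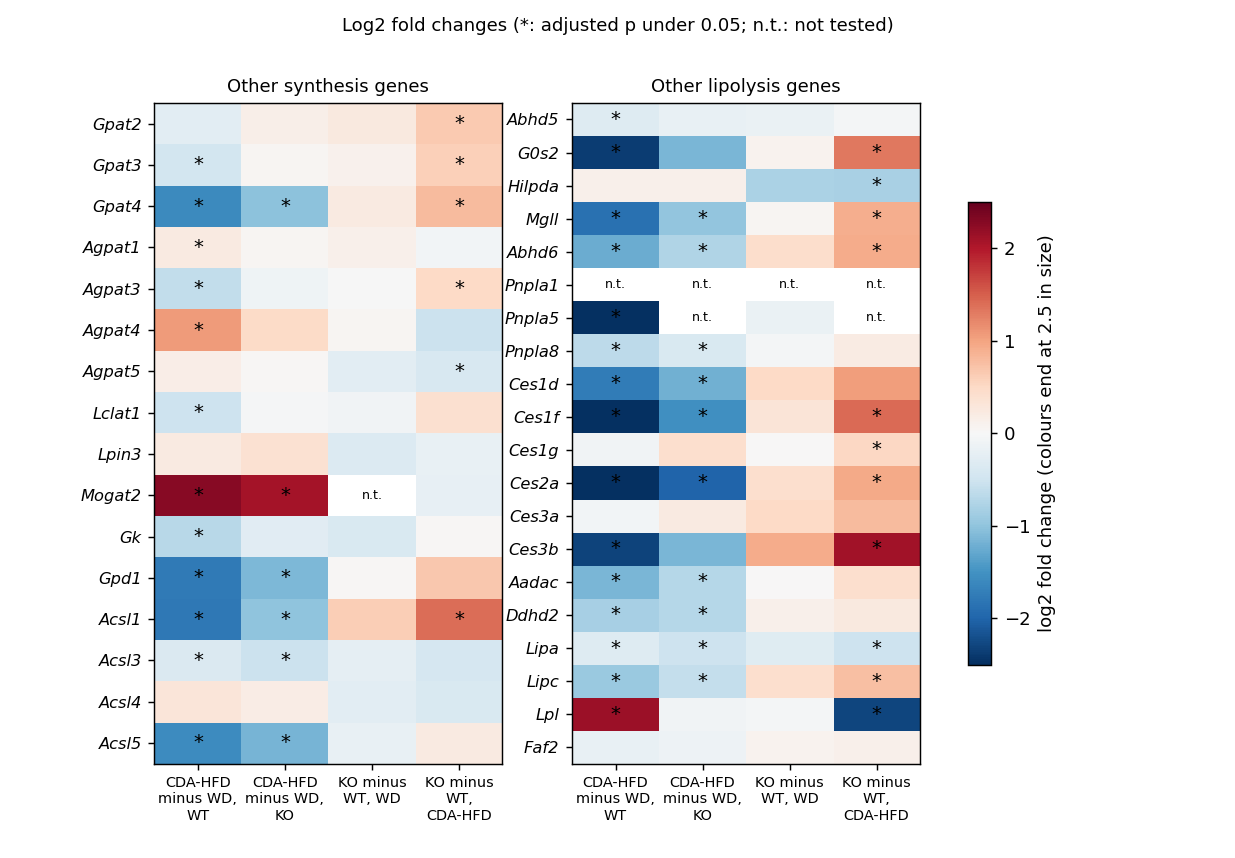
Log2 fold changes of the 16 other synthesis genes and 20 other lipolysis genes (rows) in the 4 comparisons (columns), red for higher and blue for lower, with a star at an adjusted p under 0.05 and n.t. for genes not tested. The column of WT livers between diets is mostly blue, with 9 of 16 and 14 of 19 genes lower, and that of KO minus WT on WD has no star; the value of *Pnpla5* between diets rests on counts of 0.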

How the data were processed

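Liver RNA was sequenced in 20 libraries, each taken here as a separate liver. The authors deposited raw read counts per gene symbol, whole numbers without normalization, in a table of the form htseq-count writes. The build in the submitters' processing notes is mm10, and the aligner, the counter and its use of strand are not given in the sources used here. The labels and the study's methods name different library kits. The table's 5 rows of unassigned reads, among them 20.7% to 28.8% of reads on no feature and 18.0% to 28.7% aligned more than once, were left out.

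Counts were fitted in R 4.3.3 with edgeR 4.0.16 (limma 3.58.1), using filterByExpr, TMM and the quasi-likelihood F test within the 10 livers compared, and all 20 for the difference of the KO effects. The threshold was an adjusted p of 0.05 (Benjamini-Hochberg, over all genes tested). Standard errors were the log2 fold change divided by the root of F. For each member an exact permutation test, two-sided, compared mean CPM over 252 splits. The prior count in log2 CPM for principal components was 2. Figures used Python 3.11.15 and matplotlib 3.10.9. Exon lengths were merged exons of GENCODE. The fits were tested on simulated counts.

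Tried as alternatives were DESeq2 1.42.0, scaling by RLE or by library size only, other filters on low counts, all 20 livers in one fit, a replicate block and leaving out each liver. Groups came from the labels, which number the livers without naming animals, so p-values measure the spread between these livers. Whether the number pairs livers is not known. Same-numbered livers had residual correlations between -0.367 and 0.349 over the 4 comparisons, which cannot settle it without a comparison to differently numbered livers. Pairs of libraries within a group (40) differed 6.24- to 110-fold more than sampling would give, so none was a copy. All 10 members were named. Of the 2 other gene lists, at most 6 genes per comparison past the threshold were named, in order of adjusted p, and others are marked where they occur. Members and lists were chosen with earlier results of these data known.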

Additional observations from a re-analysis of the deposited data

Results flagged for a closer look

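The KO effect on *Lipe* differed between the diets by 0.99 on the log2 scale (edgeR adjusted p = 0.0172), being -0.19 on WD and 0.79 on CDA-HFD.

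In 3 of the 44 sets of 5 livers examined, 1 liver lay apart from the others by Dixon's criterion of 0.71 of the group's range; chance gives 5%, or 2.2 sets. WT liver 3 on WD had 1323 CPM of *Lpin1* against 347.7 to 618.1 in the other WT livers on WD (ratio 0.723). WT liver 1 on CDA-HFD had 0.127 CPM of *Mogat1* against 0.237 to 0.281 (ratio 0.714), from 2 reads against 4 or 5. WT liver 2 on WD had 146.4 CPM of *Pnpla2* against 111.6 to 117.0 (ratio 0.844).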

How the results depend on the processing

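Of 920 recomputed fold changes of the enzymes, 861 kept their direction and their side of the threshold, 12 newly passed it, 17 lost it and 30 changed sign, the last in values that had not passed. Of 282 recomputed counts of genes past the threshold, 27 moved by more than 1.5 times. On CDA-HFD the KO effect passed in 4 of the 9 enzymes of the main fit by DESeq2, and in 5 of them with all 20 livers in one fit. Leaving out a liver gave 1 to 4 enzymes (1 without WT liver 3 or KO liver 1, 4 without KO liver 5). The same fits gave 2 to 10 other synthesis and 2 to 16 other lipolysis genes. On WD DESeq2 called 2 and 3 genes of those lists. For the difference of the KO effects, 0 enzymes passed with library size only and 0 with the replicate block, 1 lipolysis gene passed by DESeq2, and leaving out a liver gave 1 to 3 enzymes, 0 to 6 synthesis and 0 to 4 lipolysis genes.

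Library size only moved the median of all genes by 0.42 and 0.25 (log2) between diets in WT and KO livers, by -0.19 for the KO effect on CDA-HFD and by -0.17 for the difference. It split the calls into 9120 higher and 1570 lower between diets in WT livers, 3371 and 553 in KO livers, and 517 and 1192 for the KO effect on CDA-HFD, against 4335 and 4207, 1506 and 1286, and 1409 and 1255. *Dgat1* and *Pnpla2* in WT and *Dgat1* and *Lipe* in KO livers then no longer passed between diets, with values of -0.02, -0.02, -0.11 and -0.25. Signs changed with it in *Mogat1* on WD (-0.014), in *Lpin2* for the KO effect on CDA-HFD (-0.14) and in *Lpin2* (-0.026) and *Dgat1* (-0.094) for the difference.

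The replicate block, whose number is not known to pair the livers, turned *Pnpla2* (0.0037) and *Pnpla3* (-0.21) on WD and *Pnpla2* between diets in KO livers (-0.0051). It called 8 genes for the difference, all among the 99, and 2 on WD, of which 1 was among the 12. Between diets in KO livers it put *Agpat2* at an adjusted p of 0.0515 and *Lipe* at 0.0576. Leaving out a liver gave values on both sides of 0 on WD for *Agpat2* (-0.21 to 0.022), *Lpin1* (-0.16 to 0.46), *Mogat1* (-0.15 to 0.20), *Pnpla2* (-0.039 to 0.078) and *Pnpla3* (-0.48 to 0.30), for *Lpin2* on CDA-HFD (-0.074 to 0.11) and for *Pnpla2* between diets in KO livers (-0.062 to 0.086).

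Over all genes, calls on WD ran from 2 with the replicate block to 151 by DESeq2, with 8 by library size only, 38 without a filter and 26 in the fit of 20 livers, and from 1 to 33 without a liver. For the KO effect on CDA-HFD they ran from 1709 with library size only to 4170 in the fit of 20 livers and 4144 by DESeq2, and leaving out KO liver 1 gave 709, KO liver 5 7201. For the difference they ran from 8 with the replicate block to 363 by DESeq2, with 44 by library size only, 52 without a filter, and leaving out KO liver 3 gave 35, KO liver 5 2138. The cause was not tested. Depth limits *Mogat1* and *Pnpla3* on CDA-HFD, where a liver had at most 18 and 28 reads.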
